A study of Homo sapiens with 12 samples.

Results

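Matrix metalloproteinases (MMPs) and their tissue inhibitors (TIMPs) were examined in U-87 MG, an established human glioma cell line. The set was a list of 7 proteases (MMP1, MMP2, MMP3, MMP7, MMP9, MMP14 and MMP16) and 3 inhibitors (TIMP1, TIMP2 and TIMP3). All 10 genes were measured among 19775 genes, through 24 of the 54675 probe sets on the array. The tested cells carried a stably transfected hairpin against p105, the NFKB1 product from which the NF-kB subunit p50 is made (shp105), and the others carried a control hairpin (shControl). Each line was treated for 16 h with temozolomide (TMZ), a DNA-methylating drug used against glioma, at 100 uM or with the vehicle DMSO. The 4 groups, shp105 with TMZ, shp105 with DMSO, shControl with TMZ and shControl with DMSO, had 3 arrays each. All groups share the U-87 MG background and a stable transfection. The labels call the replicates biological but name no separate transfections or clones, so the spread behind each p-value is that between these arrays alone.

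MMPs are zinc-dependent endopeptidases that are made as inactive proenzymes and cut collagens, other matrix proteins and cell-surface proteins. TIMPs bind the active site of MMPs and block it, and some TIMPs also hold proenzymes in complexes needed for their activation. In glioma the family is known for its part in the passage of tumour cells through brain matrix, and several of its promoters are known to respond to AP-1 and NF-kB.

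The values are log2 levels per probe set, so a difference of 1 is a doubling, and n = 3 stands behind every group mean. A level of one probe set was not set against that of another. Array medians lay between 5.04 and 5.09, and 27 probe sets for bacterial sequences not present in human RNA read 2.33 to 4.30, which is taken here as the background range. Of the astroglial and glioma markers, VIM (14.69 to 14.84) and CD44 (12.58 to 13.01) were bright on all 12 arrays. GFAP (4.94 to 5.36), SOX2 (4.90 to 5.32), NES (4.45 to 5.77) and OLIG2 (3.76 to 5.65) were low, and S100B (3.25 to 3.79) and AQP4 (2.79 to 3.30) lay in the background range. Of 7 measured leukocyte markers, PTPRC (2.66 to 3.58), CD14 (3.32 to 3.91), LYZ (2.96 to 3.51) and MPO (3.51 to 3.87) also lay in that range, while CSF1R (6.46 to 7.09), CD3E (5.51 to 6.03) and ITGAM (5.12 to 5.63) lay above it.

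Hybridization spike-ins are RNAs of known amount added to each array. Their mean level over 18 probe sets was 11.18 to 11.43 in shp105 cells with TMZ, 11.01 to 11.20 in shp105 cells with DMSO, 10.84 to 11.01 in shControl cells with TMZ and 10.57 to 10.67 in shControl cells with DMSO. The spike-in level was thus higher in shp105 than in shControl arrays under each treatment. In shControl cells the spike-in level was also higher with TMZ than with DMSO, without overlap. In shp105 cells the ranges of both treatments overlapped. The part of the spike-in level in the line differences and TMZ responses was not tested beyond a fit with it as a covariate. That fit is given where it ended a call. In that fit the genes called between the lines fell from 4166 to 1045 with TMZ and from 3937 to 523 with DMSO. Spike-in level and line go together here, so the fit cannot tell them apart, and a lost call is not particular to a member. The 3' minus 5' level of GAPDH, a sign of RNA integrity, was 0.37 to 0.44 in shp105 cells with TMZ, 0.33 to 0.40 in shp105 cells with DMSO, 0.27 to 0.32 in shControl cells with TMZ and 0.22 to 0.27 in shControl cells with DMSO. It too was higher in shp105 arrays, and in shControl cells it was higher with TMZ than with DMSO. Its part in the results was not tested. The same measure for ACTB was 3.01 to 3.15 in shp105 cells with TMZ and 2.78 to 2.94 in shControl cells with TMZ. With DMSO the lines overlapped in it, at 2.94 to 3.14 in shp105 cells and 2.95 to 3.07 in shControl cells. In shControl cells it was lower with TMZ than with DMSO. NFKB1, the targeted gene, averaged 7.16 ± 0.05 in shp105 cells with TMZ, against 7.41 ± 0.11 in shControl cells with TMZ, and 7.20 ± 0.06 in shp105 cells with DMSO, against 7.32 ± 0.09 in shControl cells with DMSO (SD, n = 3 each). Its line difference passed the test with TMZ (-0.25, adjusted p = 0.0204) and did not with DMSO (-0.12, adjusted p = 0.260).

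Promoter sequences are given for TIMP3, the member with the largest difference between the lines, and for TIMP1, the inhibitor that differed in the opposite direction. MMP7 is given as the only protease with an AP-1 match among those available. These picked windows do not stand for the family. The table of RefSeq promoters held 4 of the 10 members, MMP7, MMP14, TIMP1 and TIMP3. Each sequence is the 250 bases before the annotated start on the gene's strand, assembly GRCh38.p14, at chr22:32801455-32801704 (+) for TIMP3, chrX:47582186-47582435 (+) for TIMP1 and chr11:102530748-102530997 (-) for MMP7. Capitals mark matches to an AP-1 site (TGANTCA, either strand), a GC box (GGGCGG, either strand) or a TATA box (TATAAA, sense strand).
TIMP3: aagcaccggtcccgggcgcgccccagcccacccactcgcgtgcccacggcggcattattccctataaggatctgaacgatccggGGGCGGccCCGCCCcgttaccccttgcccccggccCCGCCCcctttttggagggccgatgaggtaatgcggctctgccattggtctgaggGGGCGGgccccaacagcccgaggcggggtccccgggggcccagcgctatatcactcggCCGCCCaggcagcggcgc
TIMP1: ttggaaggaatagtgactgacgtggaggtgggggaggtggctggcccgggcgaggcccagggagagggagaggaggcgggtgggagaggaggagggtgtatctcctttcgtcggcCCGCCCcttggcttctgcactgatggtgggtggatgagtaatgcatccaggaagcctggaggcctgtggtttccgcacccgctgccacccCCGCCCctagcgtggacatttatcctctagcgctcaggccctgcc
MMP7: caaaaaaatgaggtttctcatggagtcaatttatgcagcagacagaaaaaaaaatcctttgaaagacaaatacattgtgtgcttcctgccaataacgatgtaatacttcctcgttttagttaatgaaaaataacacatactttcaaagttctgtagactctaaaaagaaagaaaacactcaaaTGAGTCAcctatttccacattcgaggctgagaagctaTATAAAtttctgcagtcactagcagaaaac
The TIMP3 window was 72.4% G or C, with 26 CpG dinucleotides and 5 GC boxes. The TIMP1 window was 64.8% G or C with 12 CpG and 2 GC boxes, and the MMP7 window 33.6% with 3 CpG, 1 AP-1 match and 1 TATA box. The MMP14 window, not printed, was 56.8% G or C with 7 CpG and 1 GC box. Over all 35116 promoters in the table the median was 58% G or C and 11 CpG. A GC box was found in 42.6% of them, an AP-1 match in 6.57% and a TATA box in 6.8%. The NF-kB consensus, searched on both strands, was in 9.96% of all promoters and in none of the TIMP3, TIMP1, MMP7 or MMP14 windows. For this consensus and for the AP-1 pattern TGANTCA alike, no match says only that these exact letters are not in a window. Sites that depart from a pattern were not searched, so no match does not mean that a promoter lacks such a site.

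Between the lines, TIMP3, a matrix-bound inhibitor that also blocks ADAM17 and several ADAMTS proteases, was much higher in shp105 cells, and the collagenase MMP1 was lower. MMP2, MMP3, MMP16 and TIMP2 were higher in shp105 cells as well, and TIMP1 was lower. With TMZ in both lines, 5 of the 10 members were higher in shp105 cells, 2 were lower and 3 did not pass an adjusted p of 0.05, where 21.1% of all genes passed (10.1% higher and 11% lower). With DMSO in both lines, 5 were higher, 3 were lower and 2 did not pass, where 19.9% of all genes passed (8.34% higher and 11.6% lower). The median difference over the members was 0.27 with TMZ and 0.14 with DMSO, beside -0.01 and -0.01 over all genes. At an unadjusted p under 0.05 it was 8 members under each treatment, where 31.9% of all genes passed with TMZ and 29.8% with DMSO. RNA was measured from whole cultures, so a smaller share of expressing cells and less RNA per cell cannot be told apart.

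**Figure D1:**
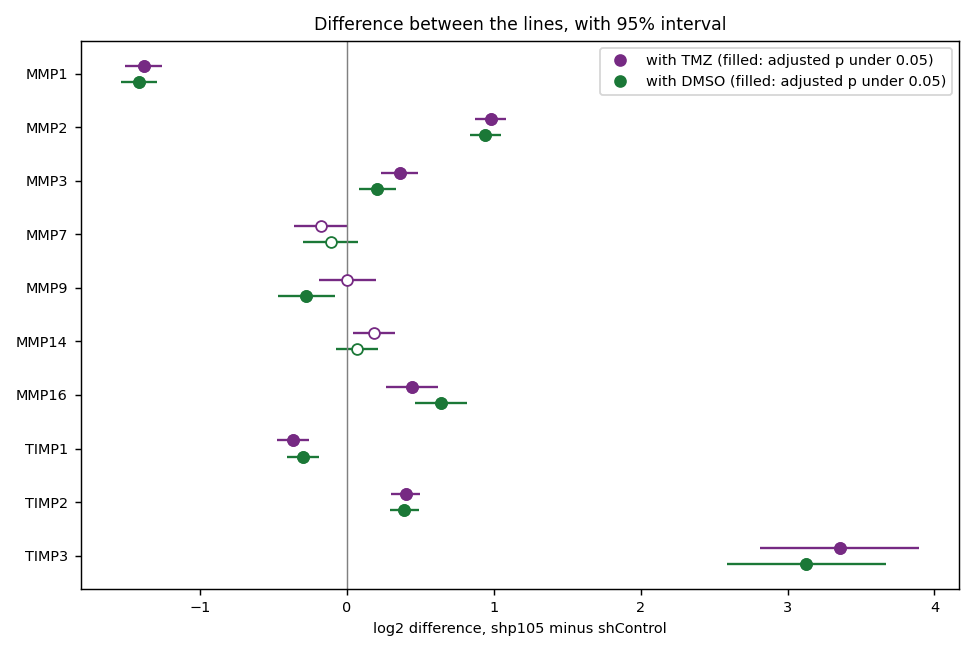
Log2 difference between the lines, shp105 minus shControl, for the 10 members with TMZ and with DMSO. Points are the fitted differences and bars their 95% confidence intervals. TIMP3 stands farthest to the right at 3.36 and 3.13, and MMP1 farthest to the left at -1.39 and -1.42.

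TIMP3 was read by 4 probe sets, all of them called higher in shp105 cells under both treatments. Probe set 201150_s_at read 10.83, 10.77 and 10.92 in shp105 cells with TMZ and 11.10, 11.11 and 11.09 in shp105 cells with DMSO, against 3.17, 3.08 and 3.67 in shControl cells with TMZ and 3.71, 3.04 and 3.61 in shControl cells with DMSO. All 6 shControl arrays lay in the background range and all 6 shp105 arrays far above it, with no overlap. With the shControl level at background only a lower bound can be given. Set against the top of the background range, 4.30, shp105 cells were at least 92.9-fold higher with TMZ (6.54 on the log2 scale) and at least 111-fold higher with DMSO (6.80), and the fit's adjusted p was 5.35e-11 with TMZ and 4.46e-11 with DMSO.

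Probe set 201147_s_at read 9.88, 9.76 and 9.64 in shp105 cells with TMZ and 9.88, 9.96 and 9.84 with DMSO, against 3.75, 3.53 and 3.12 in shControl cells with TMZ and 3.46, 3.60 and 3.46 with DMSO. Here too the shControl arrays lay at background. By the same bound this probe set read at least 43.9-fold higher in shp105 cells with TMZ (5.46 on the log2 scale) and at least 48.2-fold higher with DMSO (5.59). The fit's adjusted p was 2.24e-11 and 1.86e-11. Probe set 201149_s_at read 9.98, 9.83 and 9.71 in shp105 cells with TMZ and 10.19, 9.51 and 10.13 with DMSO, against 4.74, 4.43 and 4.54 in shControl cells with TMZ and 5.22, 4.93 and 5.40 with DMSO. Its log2 difference was 5.27 ± 0.17 with TMZ (38.7-fold) and 4.75 ± 0.17 with DMSO (27.0-fold; SE), below the bounds of the other probe sets. Its shControl arrays lay just above the background range.

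The remaining probe set, 201148_s_at, has the highest mean over the 12 arrays and therefore stands for the gene in the tests across all genes. It read 9.26, 9.24 and 9.15 in shp105 cells with TMZ and 9.33, 9.22 and 9.25 with DMSO, against 5.28, 6.07 and 6.22 in shControl cells with TMZ and 6.37, 5.57 and 6.48 with DMSO. Its shControl arrays were above background and spread more widely than its shp105 arrays (SD 0.51 and 0.50 against 0.06 and 0.06), without reaching them. The difference was 3.36 ± 0.25 with TMZ (10.2-fold, adjusted p = 1.80e-06) and 3.13 ± 0.25 with DMSO (8.73-fold, adjusted p = 3.05e-06). The mean of all 4 probe sets gave 5.61 with TMZ and 5.48 with DMSO, but it includes the 2 probe sets at background in shControl cells and is no exact size. All 4 probe sets shared the direction. In the fit with the spike-in covariate the difference with DMSO was 2.09 and missed the threshold (adjusted p = 0.0624).

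**Figure D2:**
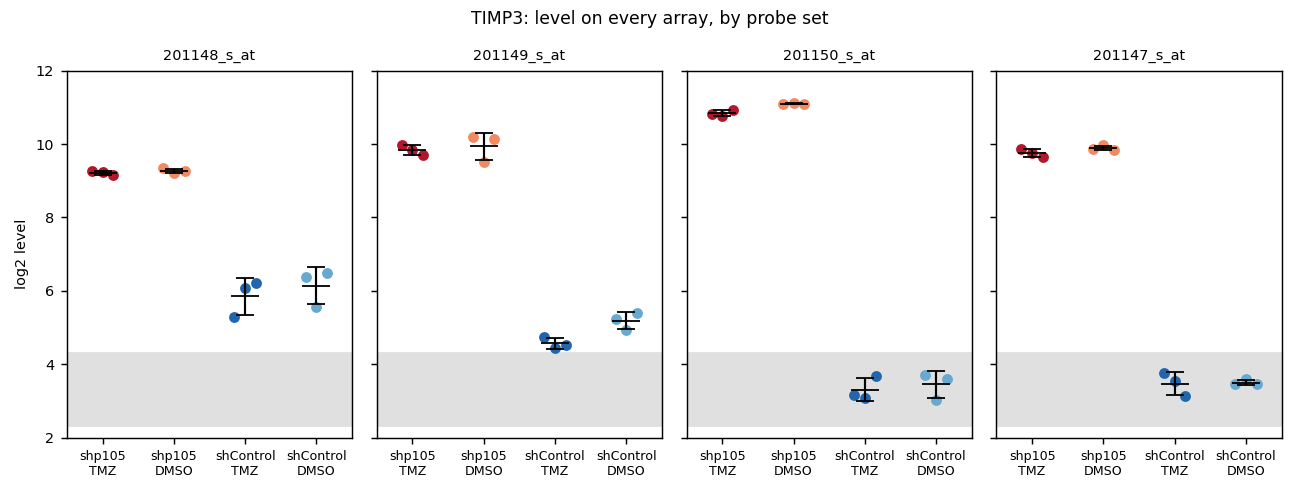
Log2 level of the 4 TIMP3 probe sets on each array, by group, with the group mean and SD (n = 3) in black; the band marks the background range of 2.33 to 4.30. The 201150_s_at and 201147_s_at points of shp105 cells lie between 9.64 and 11.11, and those of shControl cells fall inside the band.

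The other inhibitors moved far less and not in one direction. TIMP1, a broad inhibitor that also binds the MMP9 proenzyme, was read by 1 probe set. It read 13.31, 13.33 and 13.39 in shp105 cells with TMZ and 13.37, 13.37 and 13.43 with DMSO, against 13.71, 13.74 and 13.68 in shControl cells with TMZ and 13.71, 13.63 and 13.74 with DMSO. The lines did not overlap, and TIMP1 was lower in shp105 cells, with a log2 difference of -0.37 ± 0.05 with TMZ (adjusted p = 0.000245) and -0.30 ± 0.05 with DMSO (adjusted p = 0.00117). Both calls were lost with the spike-in covariate (-0.35, adjusted p = 0.0847, and -0.27, adjusted p = 0.385).

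TIMP2, which inhibits MMP2 and, in complex with MMP14, also helps to activate its proenzyme, was higher in shp105 cells in all of its 3 probe sets. The one with the highest mean, 231579_s_at, read 12.05, 12.06 and 12.07 in shp105 cells with TMZ and 12.11, 12.16 and 12.15 with DMSO, against 11.66, 11.65 and 11.67 in shControl cells with TMZ and 11.81, 11.72 and 11.72 with DMSO. The groups did not overlap and differed by 0.40 ± 0.05 with TMZ (adjusted p = 6.32e-05) and 0.39 ± 0.05 with DMSO (adjusted p = 8.16e-05). The differences in 224560_at were 0.46 and 0.36, and in 203167_at 0.74 and 0.67. With the spike-in covariate the DMSO call of TIMP2 was lost (0.41, adjusted p = 0.111).

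Among the proteases, MMP1, the interstitial collagenase that opens fibrillar collagen, was lower in shp105 cells. It read 7.48, 7.57 and 7.44 in shp105 cells with TMZ and 7.62, 7.70 and 7.52 with DMSO, against 8.90, 8.89 and 8.86 in shControl cells with TMZ and 9.04, 9.05 and 9.0 with DMSO. The lines were separated on every array, by -1.39 ± 0.06 with TMZ (2.61-fold lower, adjusted p = 1.49e-08) and -1.42 ± 0.06 with DMSO (2.67-fold lower, adjusted p = 1.21e-08). By the size of its difference it ranked 178 and 176 of 19775 genes.

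MMP3, stromelysin-1, which cuts proteoglycans and can activate other MMP proenzymes, is the neighbour of MMP1 on chromosome 11 and differed in the opposite direction. It read 10.49, 10.56 and 10.46 in shp105 cells with TMZ and 10.33, 10.20 and 10.27 with DMSO, against 10.13, 10.22 and 10.09 in shControl cells with TMZ and 10.10, 10.01 and 10.08 with DMSO. The groups of a treatment did not overlap, and the difference was 0.36 ± 0.06 with TMZ (adjusted p = 0.000825) and 0.20 ± 0.06 with DMSO (adjusted p = 0.0255). The DMSO call was lost in a fit of the DMSO groups alone (adjusted p = 0.0525), without shp105_DMSO replicate 1 (0.103) or 3 (0.0708), and without shControl_DMSO replicate 2 (0.0932) or 3 (0.0577). With the spike-in covariate it was lost under both treatments (0.23, adjusted p = 0.297 with TMZ, and 0.03, adjusted p = 0.957 with DMSO).

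In the RefSeq order the cluster on chromosome 11 runs MMP7, MMP20, MMP27, MMP8, MMP10, MMP1, MMP3, MMP12 and MMP13. Besides MMP1 and MMP3, only MMP12, the macrophage metalloelastase, was called in it, at a low mean level of 4.66 (-0.37, adjusted p = 0.0252 with TMZ, and -0.35, adjusted p = 0.0339 with DMSO). The other 6 genes of the cluster had means of 2.71 to 4.62 and were not called under either treatment.

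MMP2, the gelatinase that cuts denatured and basement-membrane collagen, was higher in shp105 cells. Probe set 201069_at read 12.86, 12.89 and 12.83 in shp105 cells with TMZ and 12.81, 12.88 and 12.83 with DMSO, against 11.87, 11.85 and 11.92 in shControl cells with TMZ and 11.92, 11.93 and 11.86 with DMSO. The lines did not overlap, with a difference of 0.98 ± 0.05 with TMZ (1.97-fold, adjusted p = 5.83e-08) and 0.94 ± 0.05 with DMSO (1.92-fold, adjusted p = 7.66e-08). Its 2 other probe sets, 1566678_at and 1566677_at, had group means of 4.65 to 4.89 and 2.95 to 3.10 and were not called, so the mean over all 3 gave only 0.29 and 0.35.

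MMP9, the other gelatinase and a known NF-kB target, was dim in both lines. It read 4.44, 4.62 and 4.48 in shp105 cells with TMZ and 4.37, 4.60 and 4.37 with DMSO, against 4.48, 4.50 and 4.55 in shControl cells with TMZ and 4.69, 4.89 and 4.58 with DMSO. The lines overlapped under both treatments. The difference was 0.00 ± 0.09 with TMZ (adjusted p = 0.986) and -0.28 ± 0.09 with DMSO (adjusted p = 0.0481). That DMSO call was lost with every probe set in the fit (0.0663), the DMSO groups alone (0.111), a trended and robust eBayes prior (0.0945), the spike-in covariate (0.948), and without shp105_DMSO replicate 1 (0.159) or 3 (0.151) or shControl_DMSO replicate 1 (0.0893) or 2 (0.178).

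MMP7, matrilysin, a small protease without the hemopexin domain of most MMPs, read 4.42 to 4.68 in the 6 shp105 arrays and 4.60 to 4.90 in the 6 shControl arrays. The ranges overlapped, and the differences of -0.18 with TMZ (adjusted p = 0.172) and -0.11 with DMSO (adjusted p = 0.439) did not pass. Both MMP7 and MMP9 lay less than 1 log2 unit above the top of the background range.

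The membrane-anchored proteases MMP14 and MMP16 both activate the MMP2 proenzyme at the cell surface. MMP14 read 7.93, 8.06 and 7.87 in shp105 cells with TMZ and 7.83, 7.68 and 7.80 with DMSO, against 7.77, 7.81 and 7.72 in shControl cells with TMZ and 7.70, 7.64 and 7.77 with DMSO. It was not called under either treatment (0.18, adjusted p = 0.0636, and 0.07, adjusted p = 0.565), and none of its 4 probe sets was. With TMZ its probe sets did not share a direction. Probe set 160020_at was lower in shp105 cells (-0.16, arrays not overlapping), and 202827_s_at and 202828_s_at differed by 0.09 and 0.04. The TMZ difference of 0.18 passed when genes below the median level were left out (adjusted p = 0.0202) and without shp105_TMZ replicate 3 (0.0442).

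MMP16 read 7.77, 7.59 and 7.49 in shp105 cells with TMZ and 7.81, 7.92 and 7.75 with DMSO, against 7.14, 7.15 and 7.24 in shControl cells with TMZ and 7.29, 7.08 and 7.18 with DMSO. The lines did not overlap, with a difference of 0.44 ± 0.08 with TMZ (adjusted p = 0.00186) and 0.64 ± 0.08 with DMSO (adjusted p = 0.000127). Of its other 4 probe sets, 207012_at differed by 0.36 and 0.38 without passing (adjusted p = 0.0749 and 0.0647), and 3 dimmer ones by -0.06 to 0.28. The mean over all 5 was 0.19 and 0.29, and the spike-in covariate ended both calls (0.28, adjusted p = 0.374, and 0.43, adjusted p = 0.338).

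**Figure D3:**
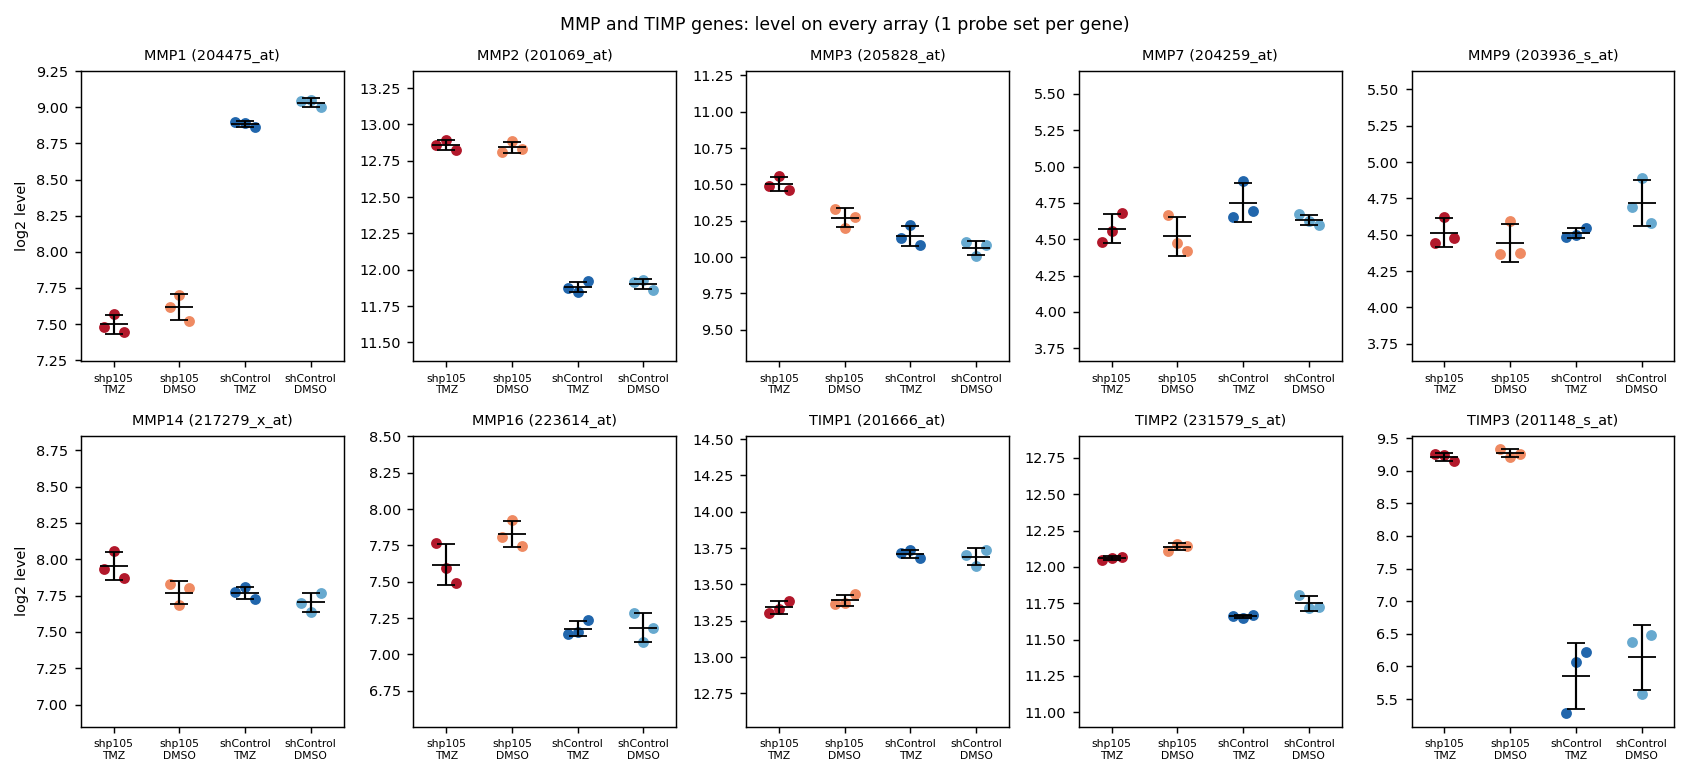
Log2 level of the 10 members on each of the 12 arrays, 1 panel a gene, with groups in the order shp105 TMZ, shp105 DMSO, shControl TMZ and shControl DMSO. Points are arrays, with the group mean and SD (n = 3) in black; each panel has its own axis, which does not start at 0. The lines separate in TIMP3, MMP1, MMP2, MMP16, TIMP1 and TIMP2, and overlap in MMP7 and MMP9.

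Counted by probe set, 10 of the 24 were higher and 2 lower in shp105 cells under each treatment. Of all probe sets 15.4% passed with TMZ and 14.4% with DMSO, in either direction. TIMP3 gave 4 of the 10 and TIMP2 gave 3, so the count repeats genes and does not stand for 10 separate ones. The arrays of the lines did not overlap for 8 members with TMZ and 7 with DMSO, where this held for 35.7% and 35.9% of all genes.

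No member passed limma's test for a response to TMZ at 16 h in either line. In shp105 cells 0 of 10 passed, where 0.865% of all genes did (0.647% higher and 0.217% lower). In shControl cells 0 of 10 passed, where 0.369% of all genes did (0.253% higher and 0.116% lower). At an unadjusted p under 0.05 it was 3 members in shp105 cells and 2 in shControl cells, where 16.3% and 11% of all genes passed. The TMZ and DMSO arrays did not overlap for 3 members in each line, where this held for 20.4% of all genes in shp105 cells and 20.3% in shControl cells. The median TMZ response of the members was -0.02 in shp105 cells and -0.01 in shControl cells, beside 0.01 and 0.00 over all genes. None of the 24 probe sets was called in either line (0.234% and 0.151% of all probe sets).

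The smallest adjusted p was that of MMP3 in shp105 cells, whose TMZ arrays all lay above its DMSO arrays. The difference was 0.23 ± 0.06, with a 95% confidence interval of 0.11 to 0.36 (adjusted p = 0.0791). It passed with genes below the median level left out (adjusted p = 0.0160) and with a trended and robust prior (0.00648). Those settings also raised the calls over all genes in this comparison, from 171 to 904 and 937. MMP3 did not pass in the fit on probe sets (adjusted p = 0.153) or with any array left out. In shControl cells the MMP3 response was 0.08 ± 0.06 (adjusted p = 0.658), with overlapping groups.

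MMP14 differed by 0.18 ± 0.06 after TMZ in shp105 cells (adjusted p = 0.195) and MMP16 by -0.21 ± 0.08 (adjusted p = 0.233). MMP1 differed by -0.12 ± 0.06 in shp105 cells (adjusted p = 0.342) and by -0.15 ± 0.06 in shControl cells (adjusted p = 0.366). MMP9 differed by -0.21 ± 0.09 in shControl cells (adjusted p = 0.408). TIMP2 differed by -0.08 ± 0.05 in shp105 cells (adjusted p = 0.426) and -0.09 ± 0.05 in shControl cells (adjusted p = 0.510). Its TMZ and DMSO arrays did not overlap in either line, but its probe set 203167_at went the other way, at 0.12 and 0.05. MMP7 differed by 0.05 ± 0.08 in shp105 cells (adjusted p = 0.804) and 0.12 ± 0.08 in shControl cells (adjusted p = 0.653). For MMP2 and TIMP1 the 95% confidence intervals lay between -0.16 and 0.13 in both lines. TIMP3 had the widest ones, -0.60 to 0.49 in shp105 cells and -0.83 to 0.26 in shControl cells. Its probe set 201149_s_at differed by -0.62 in shControl cells (adjusted p = 0.267).

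The difference of both TMZ responses, shp105 minus shControl, was called for 0 of 10 members and for 0% of all genes by limma. At an unadjusted p under 0.05 it was 1 member, MMP9, at 0.28 ± 0.13 (adjusted p = 0.775), and 6.4% of all genes.

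**Figure D4:**
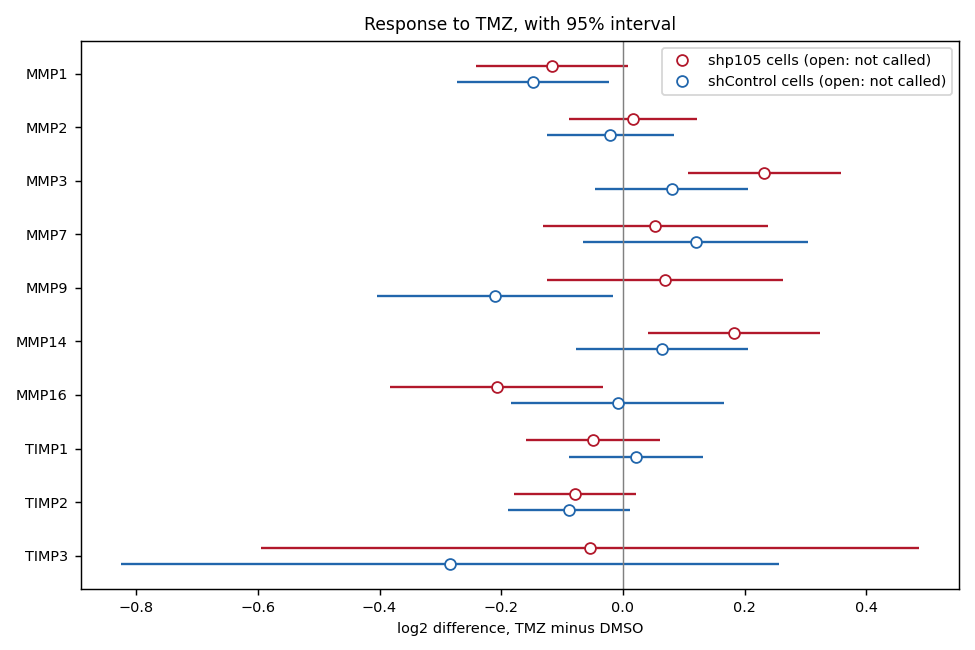
Log2 difference TMZ minus DMSO for the 10 members in shp105 and in shControl cells, with 95% confidence intervals. No member passed the test in either line; MMP3 in shp105 cells, at 0.23, came closest.

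Other genes around the MMPs were compared between the lines in the same fit. Of the remaining MMPs and TIMP4, 16 of 17 were measured (not MMP23B, which has no probe set of its own symbol), and 2 were higher, 1 was lower and 13 did not pass under each treatment, where 21.1% of all genes passed with TMZ and 19.9% with DMSO. TIMP4, the fourth inhibitor, averaged 10.41 in shp105 cells with TMZ, against 9.53 in shControl cells with TMZ, and 10.29 in shp105 cells with DMSO, against 9.48 in shControl cells with DMSO. It was higher by 0.87 (adjusted p = 6.11e-07) and 0.82 (adjusted p = 1.01e-06), so 3 of the 4 TIMP genes were higher in shp105 cells. MMP19 was higher by 0.58 and 0.66, but its second probe set gave 0.16 and -0.02 and was not called. The lower gene was MMP12, given above.

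Of 20 measured activators, docking proteins and other inhibitors of MMPs, 1 was higher and 5 were lower in shp105 cells with TMZ, and 3 were higher and 5 lower with DMSO, beside the same shares of all genes, 21.1% and 19.9%. THBS2, a matricellular protein that binds MMP2 for uptake, was lower, at -1.29 with TMZ and -1.45 with DMSO (adjusted p = 2.41e-07 and 9.06e-08). PLAU, the urokinase that generates plasmin, was lower, at -0.75 and -0.54, and so was PLAUR, its receptor, at -0.91 and -0.79. Both probe sets of PLAU and all 3 of PLAUR were called lower. TFPI2, a plasmin inhibitor, was lower, at -0.56 and -0.50. The higher genes, looked up after their values were seen, were CAV1, which forms caveolae, with TMZ (0.31), and CAV1 (0.41), the syndecan SDC1 (0.25) and the integrin chain ITGAV (0.23) with DMSO. The list median was -0.04 with TMZ and 0.00 with DMSO.

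Of 20 measured ADAM and ADAMTS metalloproteinases, which share the catalytic fold and several of which TIMP3 inhibits, 6 were higher and 1 was lower in shp105 cells under each treatment. Of all genes 21.1% passed with TMZ (10.1% higher) and 19.9% with DMSO (8.34% higher). The list median was 0.14 with TMZ and 0.09 with DMSO. ADAM12 was higher by 0.97 and 0.82 (adjusted p = 7.13e-07 and 2.77e-06), and 3 of its 5 probe sets were called. ADAMTS12 was higher by 0.63 and 0.74 and ADAMTS2, a procollagen N-proteinase, by 0.66 and 0.39, while the aggrecanase ADAMTS5 was lower, at -0.25 and -0.38. After TMZ, ADAMTS1 was lower in shp105 cells (-0.38, adjusted p = 0.0113), the single call among these 4 lists in a TMZ response.

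Of 14 measured AP-1, ETS and RUNX factors with known sites in MMP promoters, 1 was higher and 3 were lower in shp105 cells with TMZ, and 3 were higher and 4 lower with DMSO, where 21.1% and 19.9% of all genes passed. ETV1, an ETS factor, was lower, at -0.75 and -0.60 (adjusted p = 0.000124 and 0.000669). FOSL1, an AP-1 subunit, was lower, at -0.31 and -0.25. JUN was lower at -0.31 with TMZ (adjusted p = 0.00266), and JUNB at -0.39 with DMSO (adjusted p = 0.0108). The AP-1 subunit JUND, looked up after its values were seen, went the other way. It averaged 11.11 in shp105 cells with TMZ, against 10.95 in shControl cells with TMZ. With DMSO it averaged 11.15 in shp105 cells, against 10.89 in shControl cells. All other AP-1 subunits of the list had lower means in shp105 cells under both treatments. ETV4 was higher by 0.30 with TMZ and ETS1 by 0.34 with DMSO. With DMSO, ETV4 averaged 7.11 in shp105 cells, against 6.82 in shControl cells. The means of JUN, JUNB, ETV4 and ETS1 differed in the same direction under the other treatment as well.

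**Figure D5:**
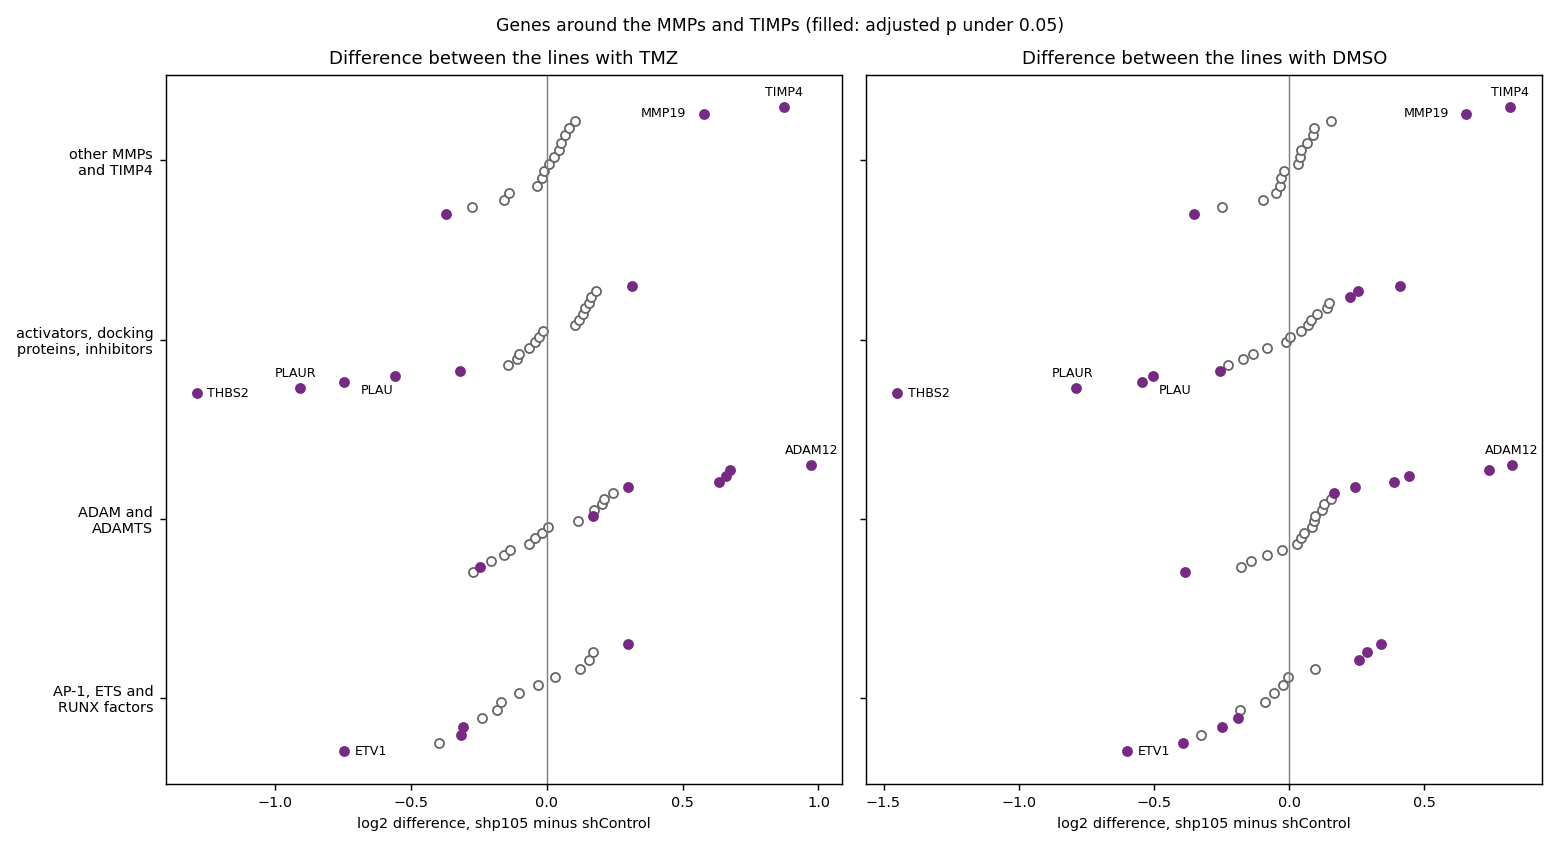
Log2 difference between the lines, shp105 minus shControl, for the measured genes of 4 related lists with TMZ and with DMSO. Each point is a gene and filled points passed an adjusted p of 0.05. THBS2, PLAUR and ETV1 lie farthest to the left, and TIMP4 and ADAM12 farthest to the right.

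Only MMP1 and TIMP3 had group means that spanned at least 1 log2 unit. Over the 12 arrays and among 10408 genes with a mean level of 6 or more, the pattern most like that of MMP1 was that of the histone gene H1-2 (Pearson r = 0.996), followed by the cytokine gene IL1B (0.995) and the fatty acid binding protein gene FABP5 (0.995). Most like TIMP3 were SYT13 (0.992), TMEM35A (0.991) and SAT1 (0.989). The 12 points share their line and treatment, and 397 genes had an r over 0.95 with MMP1 and 259 with TIMP3.

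Markers of other cell types differed between the lines in a few genes. Of the 8 glioma and astroglial markers, OLIG2 was higher in shp105 cells (1.37 and 1.22) and CD44 lower (-0.32 and -0.25). The shControl arrays read OLIG2 at 3.76 to 4.27, in the background range, so its difference is no exact size. Of 4 endothelial markers, TEK was higher in shp105 cells (1.54 and 1.53), with shControl arrays at 4.09 to 4.42, around the top of the background range. The other 3 were not called under either treatment, and the list median was -0.12 with TMZ and -0.03 with DMSO. PECAM1 averaged 5.81 in shp105 cells with TMZ, against 5.87 in shControl cells with TMZ, and VWF 4.48 against 4.68. CDH5 averaged 3.20 against 3.39 and read 2.91 to 3.53, in the background range. The log2 summed level of the endothelial list was 7.07 to 7.36 in shp105 cells with TMZ and 6.76 to 6.94 in shControl cells with TMZ. Of 5 epithelial markers, KRT8 was higher (0.80 and 0.69) and EPCAM lower (-0.45 and -0.39), and KRT18 was also higher with DMSO. The epithelial sum was 7.54 to 7.63 in shp105 cells with TMZ and 7.31 to 7.47 in shControl cells with TMZ. Of 7 measured leukocyte markers, CSF1R was lower (-0.28 and -0.34), and the sum was 7.88 to 7.95 in shp105 cells with TMZ and 8.03 to 8.12 in shControl cells with TMZ. The part of these markers in the results was not tested.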

How the data were processed

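Expression was measured on 12 Affymetrix arrays. The deposited values are log2 levels per probe set, made with RMA and Affymetrix Power Tools per the submitters' processing notes, which give no versions; the genome build is not given in the sources used here. Probe sets were named from the platform's probe table and RefSeq (GRCh38.p14): 41097 had 1 gene symbol, and 1801 with several and 11777 with none were not used. The probe set with the highest mean over 12 arrays stood for a gene. A gene with no probe set of its own symbol counts as not measured.

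One limma fit of the 4 group means (lmFit and eBayes; limma 3.58.1 in R 4.3.3) gave the 5 comparisons, 2-sided, with Benjamini-Hochberg adjusted p over 19775 genes; a gene under 0.05 is called. Values for single probe sets come from the same fit on 41097 probe sets. Errors of differences are standard errors. The number of arrays limits the precision. The fit was tested on simulated data.

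The members and gene lists were chosen with earlier results of these data known. Named were all members, NFKB1, up to 4 called genes of each list by smallest p in a comparison, and the 3 genes most correlated with a member whose group means span at least 1 (means of 6 or more). Same-numbered arrays of different groups did not deviate together (18 pairs, r -0.14 to 0.12, median 0.02, 2 over 0.1), so the numbers were not used to pair arrays. Alternatives were other gene summaries, a filter on dim genes, further normalization, another eBayes prior, other samples in the fit, a replicate block, a spike-in covariate, a stricter threshold and each array left out in turn.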

Additional observations from a re-analysis of the deposited data

How the results depend on the processing

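No member changed direction as a called result under any alternative. The members called between the lines were 7 with TMZ and 8 with DMSO, where 4166 and 3937 of all 19775 genes were called. In the fit with the spike-in covariate it was 4 and 2 members, where 1045 and 523 of all genes were called. With each array left out in turn, the counts ran from 7 to 8 and from 6 to 8. In the TMZ response of shp105 cells 1 member, MMP3, was called with genes below the median level left out and 1 with a trended and robust prior, in place of 0; with an array left out it was 0 in both responses and in their difference. Of the calls of single members across alternatives, 109 of 112 held with TMZ and 107 of 127 with DMSO. MMP7 and MMP9 have no value under the filter on dim genes.

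Counts over all genes moved more. TMZ called 171 genes in shp105 cells and 73 in shControl cells, which became 904 and 291 without dim genes, 937 and 358 with a trended and robust prior, 2 and 19 with only the compared groups, 39 and 15 at an adjusted p under 0.01, and 13 and 0 with the spike-in covariate. Averaging probe sets gave 45 and median centring 43 in shControl cells, and every probe set gave 96 in shp105 cells. Leaving out arrays gave down to 49 and 16. The line differences called 4166 genes with TMZ and 3937 with DMSO, against 1045 and 523 with the covariate, 2566 and 2439 at 0.01, and 6317 and 5935 probe sets. The difference of responses called 0, and 8 without dim genes or 12 with the trended prior.

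With the replicate number as a block, the members called stayed at 7 with TMZ and 8 with DMSO between the lines and 0 in the responses, and all genes called fell to 84 and 30 in the TMZ responses. Low levels near background limit MMP7, MMP9 and the shControl TIMP3 values. The cause of these shifts was not tested.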

Other observations

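TIMP1, TIMP3 and TIMP4 each lie within a synapsin gene in RefSeq, TIMP1 in SYN1, TIMP3 in SYN3 and TIMP4 in SYN2, a position looked up after their values were seen. SYN3 had a mean level of 3.72, in the background range, and differed between the lines by 0.39 with TMZ (adjusted p = 0.0399) and 0.35 with DMSO (adjusted p = 0.0700), beside TIMP3 at 3.36 and 3.13. SYN1 (-0.02 and 0.06) and SYN2 (-0.26 and 0.04) were not called under either treatment.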
